A study of Mus musculus with 12 samples.

Results

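Integrins and laminins were read from the dorsal skin transcriptome of mice with chemically induced atopic dermatitis-like lesions. Genes were chosen by name, as every row of the expression table named Itga or Itgb with a subunit suffix, or Lama, Lamb or Lamc with a chain number, and relatives such as Itgbl1 and the integrin-binding proteins were left out. The rule used no measured value, and the genes described are 37 of 36400, 27 integrin subunits and 10 laminin chains. All animals were female BALB/c mice, 6 weeks old at purchase, whose back hair was removed before the first application. Control mice received the solvent of acetone and olive oil alone. The DNCB group was sensitized with 1% 1-chloro-2,4-dinitrobenzene (DNCB), a contact hapten, and challenged with 0.5% DNCB. The scMSC group received the same DNCB schedule plus 2000000 human umbilical cord mesenchymal stem cells (MSCs) per dose, given subcutaneously in 100 µL. The scivMSC group received as many cells, with 50 µL given subcutaneously and 50 µL by tail vein. Skin was taken on day 30, and each group had 3 libraries.

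Integrins are cell surface receptors made of an α and a β subunit that hold cells to the matrix or to each other, and laminins are three-chain matrix proteins, with an α, a β and a γ chain, that build the basement membrane. In skin, basal keratinocytes hold on to laminin-332 (the laminin that holds the chains of Lama3 and Lamb3) through α6β4 in hemidesmosomes and through α3β1, fibroblasts and vessels use β1, β3 and β5 integrins that bind collagen, fibronectin and vitronectin, and leukocytes carry β2 and β7 integrins for adhesion to endothelium and epithelium. The members were divided accordingly into 5 epithelial integrins, 9 stromal integrins, 10 leukocyte and platelet integrins, 3 broadly expressed integrins, the laminin-332 genes Lama3 and Lamb3, and 8 other laminins.

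Promoter sequences are shown for 6 members that carry the main patterns below and for which RefSeq gave a start site, each as the 250 bases before the start on the coding strand (GRCm38.p6). Itgb1 was higher in DNCB skin than in each other group, Itga5 had the largest difference from control among stromal integrins, and Itgam and Itgax are neighbouring leukocyte genes. Lamb1 had the largest increase in DNCB against control skin among the tested laminins outside laminin-332. Lamb3 was the laminin-332 chain that passed only against scMSC skin among the DNCB comparisons. Capitals mark a match to TGANTCA, the site of AP-1 factors, or to GAGGAA and its complement TTCCTC, a core bound by PU.1, on either strand. The windows are chr8:128685404-128685653 (plus strand) for Itgb1, chr15:103366792-103367041 (minus strand) for Itga5, chr7:128062390-128062639 (plus strand) for Itgam, chr7:128129300-128129549 (plus strand) for Itgax, chr12:31265043-31265292 (plus strand) for Lamb1 and chr1:193301744-193301993 (plus strand) for Lamb3.
Itgb1: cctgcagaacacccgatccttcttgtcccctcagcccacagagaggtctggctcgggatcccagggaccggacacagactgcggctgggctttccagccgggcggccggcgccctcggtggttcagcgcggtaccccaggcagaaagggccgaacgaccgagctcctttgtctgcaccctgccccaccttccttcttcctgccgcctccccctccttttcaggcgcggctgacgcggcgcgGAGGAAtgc
Itga5: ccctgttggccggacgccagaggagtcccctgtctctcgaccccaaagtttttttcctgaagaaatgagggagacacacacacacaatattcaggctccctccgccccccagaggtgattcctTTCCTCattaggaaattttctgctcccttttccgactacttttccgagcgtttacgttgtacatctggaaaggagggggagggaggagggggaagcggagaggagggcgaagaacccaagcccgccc
Itgam: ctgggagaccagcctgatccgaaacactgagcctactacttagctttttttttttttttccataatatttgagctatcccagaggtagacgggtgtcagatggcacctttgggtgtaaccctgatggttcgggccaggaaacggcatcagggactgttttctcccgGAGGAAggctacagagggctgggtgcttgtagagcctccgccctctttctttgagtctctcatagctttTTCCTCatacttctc
Itgax: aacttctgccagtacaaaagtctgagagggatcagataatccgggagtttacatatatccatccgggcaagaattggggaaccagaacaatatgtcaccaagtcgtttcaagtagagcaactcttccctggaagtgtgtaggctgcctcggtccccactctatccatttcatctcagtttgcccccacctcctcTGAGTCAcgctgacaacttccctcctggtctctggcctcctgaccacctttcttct
Lamb1: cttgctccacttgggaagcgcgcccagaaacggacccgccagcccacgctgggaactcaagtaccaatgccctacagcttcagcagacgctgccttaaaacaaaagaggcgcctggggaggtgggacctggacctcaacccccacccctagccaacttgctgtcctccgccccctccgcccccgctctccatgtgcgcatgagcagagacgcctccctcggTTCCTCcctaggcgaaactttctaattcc
Lamb3: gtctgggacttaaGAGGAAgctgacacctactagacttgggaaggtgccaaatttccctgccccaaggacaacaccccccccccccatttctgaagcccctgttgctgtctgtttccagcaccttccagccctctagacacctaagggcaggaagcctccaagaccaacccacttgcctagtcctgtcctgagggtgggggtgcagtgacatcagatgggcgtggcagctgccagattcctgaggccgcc
The Lamb3 window shown lies inside the gene as annotated (chr1:193207699-193343878). RefSeq gave another Lamb3 window, chr1:193301993-193302242, which is not shown and had 0 matches to either pattern. RefSeq windows were found for 24 members (27 windows). TGANTCA was present in 1 member window, that of Itgax, and in 6.7% of all 32851 promoter windows. GAGGAA or TTCCTC was present in 14 of 27 member windows and in 23.3% of all windows. Among the 14 genes with this match were leukocyte (Itgam), stromal (Itga5), epithelial (Itga3, Itgb6) and laminin genes (Lamb1, Lamb2, Lamb3). Itga3, Itgb6 and Lamb3 each also had a RefSeq window without it.

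The libraries held 63877153 to 75134001 estimated counts. Levels are given as FPKM (fragments scaled to transcript length and sequencing depth), listed for replicates 1, 2 and 3, and differences as log2 fold changes from the estimated counts with their standard errors (SE). A member passed the test when its p-value from edgeR's quasi-likelihood test, adjusted over all 21890 genes tested in that comparison, was below 0.05. Itgad, Itgb2l and Lama1 were below the mean level of 0.1 FPKM needed for testing, so 34 members were tested. Itgad and Itgb2l, both leukocyte subunits, had at most 18 and 8 estimated counts in any library, where about 4 counts stand for 1 fragment. Lama1, an embryonic basement membrane chain, had 96, 133 and 159 estimated counts in DNCB skin and 0 to 68 elsewhere. With 3 libraries a group an exact permutation test of a single gene cannot give a p below 0.10, and each comparison therefore rests on the fit over all genes. The sample titles give 12 libraries in 4 groups and do not name single mice. These are bulk libraries, so fewer cells of a type and less RNA per cell cannot be told apart. All 3 comparisons of DNCB skin share the same DNCB libraries, and all comparisons with control share the control libraries.

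**Figure D1:**
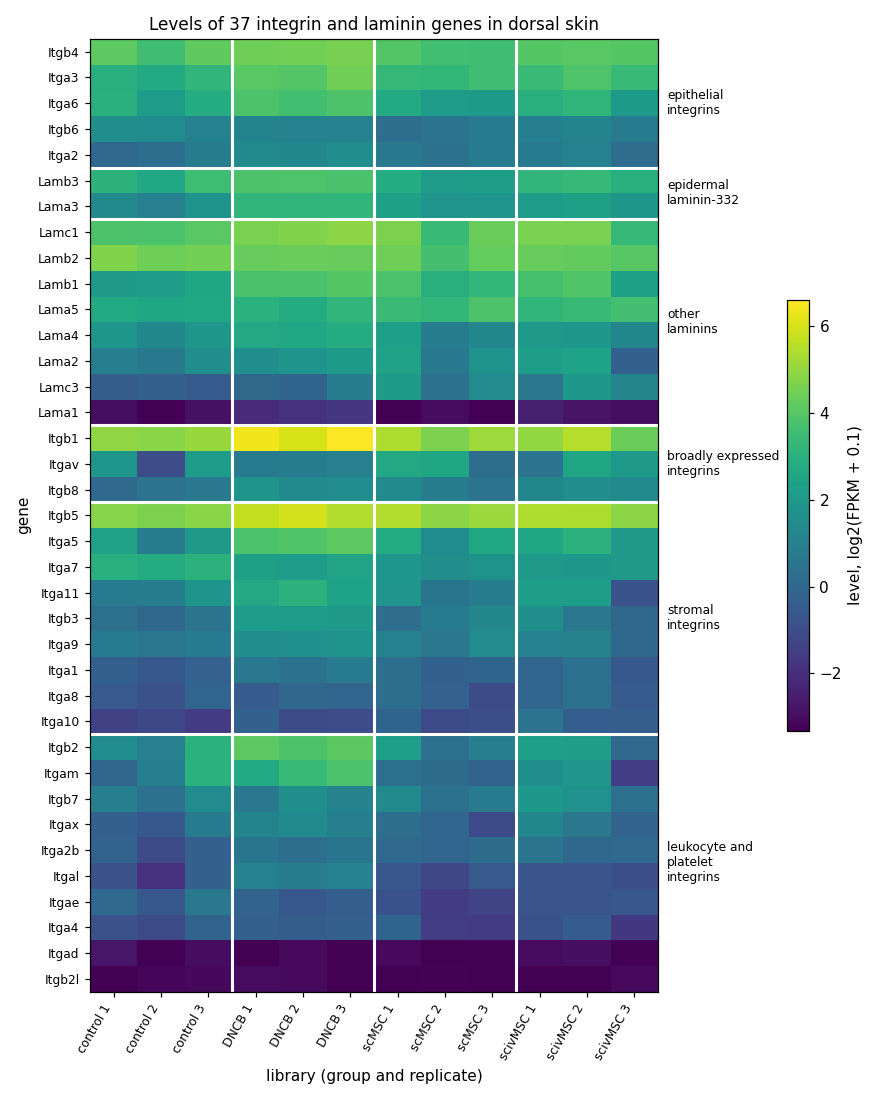
Levels of the 37 members as log2(FPKM + 0.1) in the 12 libraries, with genes in rows by class and libraries in columns by group. Itgb1 and Itgb5 are the brightest rows, Itgb1 reaching 64.4 to 97.6 FPKM in DNCB skin, while Itgad and Itgb2l are the darkest.

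Itgb1 had the highest mean level over all libraries (45.1 FPKM), followed by Itgb5 (38.3 FPKM), Lamc1 (19.9 FPKM), Lamb2 (19.8 FPKM) and Itgb4 (16.9 FPKM). Summed over subunits, stromal integrins made up 28.6% to 42.0% of all integrin FPKM in a library, broadly expressed ones 22.9% to 35.3%, epithelial ones 21.1% to 30.9%, and leukocyte and platelet ones 4.94% to 16.0%. These defining markers were present in the tissue. Basal keratinocyte markers (Krt5, Krt14, Krt15, Trp63 and Col17a1) summed to 1755 FPKM or more in every library, and fibroblast markers to 127.9 FPKM or more. Skeletal muscle markers summed to 14917 to 20951 FPKM in control skin and to 4203 to 10981 FPKM in the other groups.

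DNCB skin had higher levels of the laminin-332 chain Lama3, of the β1 subunit and of the leukocyte subunit Itgal than each other group. Against control, 13 of 34 members passed with higher levels in DNCB skin, where 12.9% of all genes tested did, and 1 passed with a lower level, where 12.4% of all genes did (18 and 3 at an unadjusted p under 0.05). The median log2 fold change was 0.80 over the members and 0.02 over all genes. With a log2 fold change over 1 as well, 8 members were higher (6.59% of all genes) and 0 were lower (7.57% of all genes). Against scMSC skin, 14 members were higher in DNCB skin (5.77% of all genes) and 0 were lower (6.95%), and 10 and 0 also exceeded the fold limit (3.84% and 4.66%). Against scivMSC skin, 3 members were higher (3.60%) and 0 lower (4.56%), and all 3 exceeded the fold limit (2.33% of all genes higher, 3.13% lower). Itgal, Itgb1 and Lama3 were the 3 that passed in all 3 comparisons. At an unadjusted p under 0.05, 21 members were higher and 2 lower than in scMSC skin, and 17 were higher and 2 lower than in scivMSC skin. DESeq2 called 19 higher and 2 lower against scMSC skin and 15 higher and 0 lower against scivMSC skin, and limma called 13 and 0, and 5 and 0, so the count against scivMSC skin depended on the tool. Single libraries also moved these counts, with 6 higher members against scMSC skin without DNCB replicate 3 and 8 against scivMSC skin without scivMSC replicate 2.

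**Figure D2:**
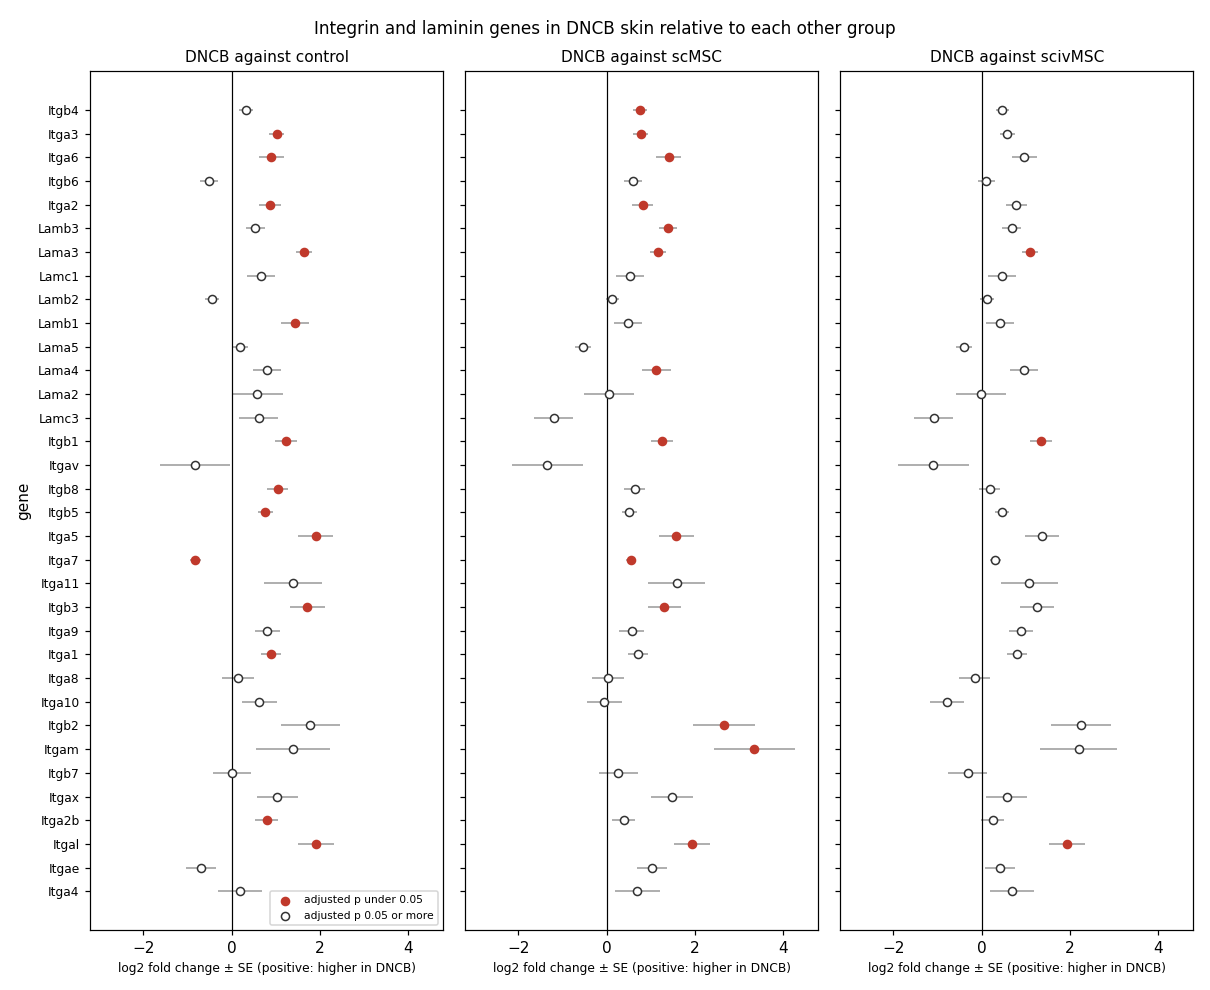
Log2 fold changes of the 34 tested members in DNCB skin against control, scMSC and scivMSC skin, with bars of 1 SE. Filled points have an adjusted p under 0.05. Most points lie to the right of 0, with Lama3 at 1.65, 1.16 and 1.09, and Itga7 is the filled point to the left of 0 in the comparison with control.

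Lama3, the α3 chain that binds the integrins, was at 2.56, 1.89 and 3.28 FPKM in control, 9.18, 8.94 and 9.24 FPKM in DNCB, 5.02, 3.52 and 3.55 FPKM in scMSC, and 4.27, 4.86 and 3.73 FPKM in scivMSC skin. Every DNCB library was above every library of the other groups, with a log2 fold change of 1.65 (SE 0.18, adjusted p = 0.000514) against control, 1.16 (SE 0.18, adjusted p = 0.00293) against scMSC and 1.09 (SE 0.18, adjusted p = 0.00700) against scivMSC. Lamb3, the β3 chain, was at 8.55, 6.0 and 11.3 FPKM in control, 14.3, 14.6 and 13.5 FPKM in DNCB, 7.02, 4.32 and 4.64 FPKM in scMSC, and 9.08, 9.96 and 7.35 FPKM in scivMSC skin. DNCB libraries were again the highest, but Lamb3 passed only against scMSC skin (1.39, SE 0.21, adjusted p = 0.00279), with 0.54 (SE 0.21, adjusted p = 0.0775) against control and 0.68 (SE 0.21, adjusted p = 0.0699) against scivMSC. Lamb3 also passed against control in the 3 limma fits and under scaling by library size alone, with adjusted p down to 0.0303. Lama3 passed in all 3 comparisons, and Lamb3 against scMSC skin, also when any 1 library was left out.

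Lama3 and Lamb3 thus stood in different proportions in the groups. Per unit length, Lama3 was at 0.291 to 0.315 of the Lamb3 level in control, 0.612 to 0.683 in DNCB, 0.715 to 0.815 in scMSC and 0.470 to 0.507 in scivMSC skin. Ranges of this ratio did not overlap between any of the groups, and it was highest in scMSC skin. It was described without a test. The share of gene pairs that separate in this way was not counted, here or for the ratios below, so no route pattern is read from it. Lamb3 overlaps Hsd11b1 and G0s2 on the opposite strand, and whether the counting used strand is not given in the sources used here, so its level is less certain.

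Lamc1, the γ1 chain of most other laminins, lies at chr1:153218922-153332786 on the minus strand. It was at 14.2, 13.7 and 16.6 FPKM in control, 24.4, 26.4 and 29.6 FPKM in DNCB, 25.0, 10.3 and 20.1 FPKM in scMSC, and 24.2, 24.3 and 9.71 FPKM in scivMSC skin. Its DNCB libraries were above control, with a log2 fold change of 0.67 (SE 0.32, adjusted p = 0.159) that did not pass, and they overlapped scMSC skin.

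**Figure D3:**
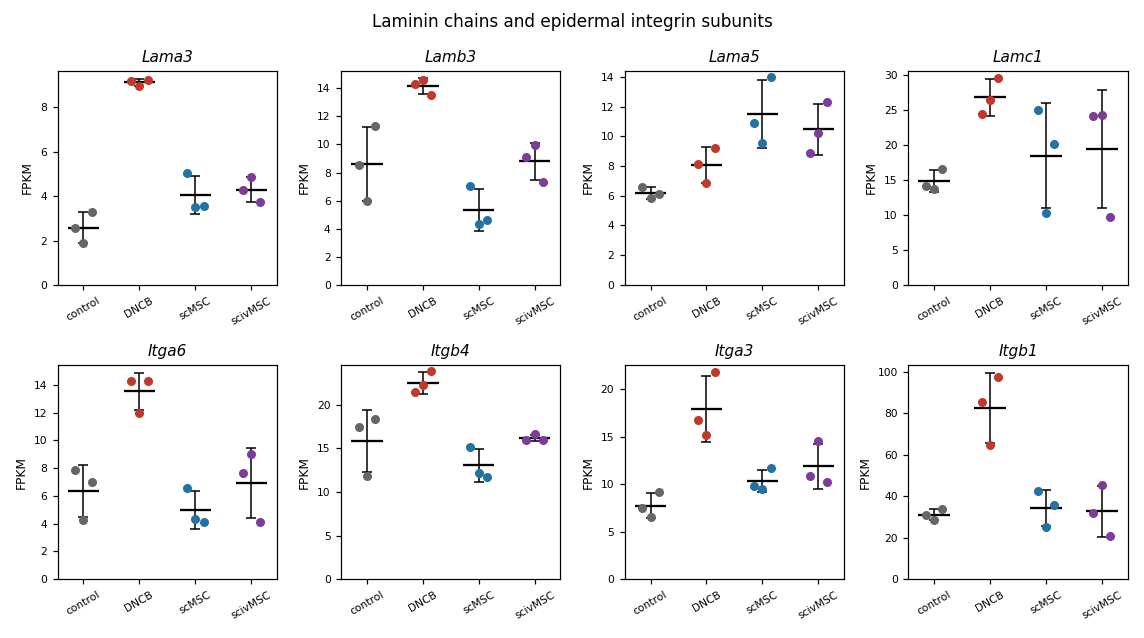
FPKM in each library (points) with the group mean and SD (bars) for Lama3, Lamb3, Lama5, Lamc1 and 4 integrin subunits of keratinocytes. DNCB points lie above those of every other group for all genes but Lama5, where the MSC groups reach 8.91 to 14.0 FPKM, and Lamc1, where an scMSC library at 25.0 FPKM falls within the DNCB range of 24.4 to 29.6.

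Among epithelial integrins, 3 of 5 were higher in DNCB than in control skin, 4 of 5 were higher than in scMSC skin and 0 passed against scivMSC skin, with median log2 fold changes of 0.87, 0.77 and 0.58. Of all genes tested, 12.9%, 5.77% and 3.60% were higher in the same comparisons. Against scivMSC skin, 4 were higher at an unadjusted p under 0.05 and by DESeq2 (Itga2, Itga3, Itga6 and Itgb4), and 0 by limma. Itga3, the α3 receptor subunit for laminin-332, was at 7.53, 6.54 and 9.19 FPKM in control, 16.8, 15.2 and 21.8 FPKM in DNCB, 9.78, 9.52 and 11.7 FPKM in scMSC, and 10.9, 14.6 and 10.2 FPKM in scivMSC skin. It was higher in DNCB skin by 1.03 (SE 0.17, adjusted p = 0.00197) against control and 0.77 (SE 0.17, adjusted p = 0.0138) against scMSC, the latter with adjusted p = 0.0545 without DNCB replicate 3. Against scivMSC the value was 0.58 (SE 0.17, adjusted p = 0.0588). Both MSC groups lay above every control library for Itga3.

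Itga6, the α subunit of the hemidesmosome integrin, was at 7.87, 4.28 and 6.98 FPKM in control, 14.3, 12.0 and 14.3 FPKM in DNCB, 6.59, 4.34 and 4.11 FPKM in scMSC, and 7.64, 8.99 and 4.15 FPKM in scivMSC skin. DNCB libraries were the highest, by 0.90 (SE 0.28, adjusted p = 0.0354) against control, 1.41 (SE 0.28, adjusted p = 0.00892) against scMSC and 0.97 (SE 0.28, adjusted p = 0.0576) against scivMSC. The call against control was lost in 6 fits that left out 1 library (control replicate 2 or 3, any DNCB replicate or scMSC replicate 2), with adjusted p from 0.0579 to 0.148, and the call against scMSC was lost in none. Its partner Itgb4 was at 17.4, 11.8 and 18.3 FPKM in control, 21.4, 22.2 and 23.9 FPKM in DNCB, 15.2, 12.2 and 11.7 FPKM in scMSC, and 15.9, 16.6 and 16.0 FPKM in scivMSC skin. Itgb4 passed against scMSC (0.76, SE 0.15, adjusted p = 0.00825), with 0.33 (SE 0.15, adjusted p = 0.132) against control and 0.47 (SE 0.15, adjusted p = 0.0823) against scivMSC. Against control, Itgb4 passed only in the 3 limma fits and under scaling by library size alone, with adjusted p down to 0.0304. The level of Itga6 was 0.364 to 0.453 of that of Itgb4 in control and 0.542 to 0.670 in DNCB skin, ranges that did not overlap, against 0.351 to 0.435 in scMSC and 0.259 to 0.542 in scivMSC skin.

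Itga2, a collagen receptor subunit of keratinocytes and platelets, was at 0.964, 1.11 and 1.74 FPKM in control, 2.62, 2.41 and 2.85 FPKM in DNCB, 1.53, 1.20 and 1.67 FPKM in scMSC, and 1.55, 1.94 and 1.07 FPKM in scivMSC skin. It was higher in DNCB skin by 0.87 (SE 0.24, adjusted p = 0.0204) against control and 0.82 (SE 0.24, adjusted p = 0.0437) against scMSC. The call against control was lost without control replicate 1 or 2 or DNCB replicate 1 or 3 (adjusted p 0.0543 to 0.0955), and the one against scMSC was lost without control replicate 2, any DNCB or scMSC replicate or scivMSC replicate 1 (adjusted p 0.0549 to 0.139). The Itga2 call against scMSC was also lost in 5 of 10 other settings, with adjusted p up to 0.0786. Itgb6, whose product with αv activates TGF-β in epithelium, passed in none of the DNCB comparisons. It ranged from 1.95 to 2.90 FPKM in control, 1.94 to 2.16 FPKM in DNCB, 1.10 to 1.55 FPKM in scMSC and 1.66 to 2.16 FPKM in scivMSC skin, with a log2 fold change of -0.51 (SE 0.20, adjusted p = 0.0891) in DNCB against control, where libraries overlapped, 0.60 (SE 0.20, adjusted p = 0.0820) against scMSC and 0.11 (SE 0.20, adjusted p = 0.821) against scivMSC.

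Itgb1, the β1 subunit shared by the laminin, collagen and fibronectin receptors of most cells, was at 30.7, 28.6 and 33.8 FPKM in control, 85.3, 64.4 and 97.6 FPKM in DNCB, 42.3, 25.2 and 35.5 FPKM in scMSC, and 31.8, 45.5 and 20.7 FPKM in scivMSC skin. Each DNCB library exceeded all 9 others, by 1.23 (SE 0.25, adjusted p = 0.00523) against control, 1.25 (SE 0.25, adjusted p = 0.00908) against scMSC and 1.34 (SE 0.25, adjusted p = 0.0118) against scivMSC. Only the last call depended on a library, with adjusted p = 0.0524 without scivMSC replicate 1. Itgb8, which activates TGF-β with αv, was at 0.958, 1.29 and 1.46 FPKM in control, 3.47, 2.51 and 2.72 FPKM in DNCB, 2.50, 1.76 and 1.26 FPKM in scMSC, and 2.28, 2.79 and 2.56 FPKM in scivMSC skin. DNCB was above control without overlap (1.05, SE 0.24, adjusted p = 0.00901), just above scMSC (0.64, SE 0.24, adjusted p = 0.112) and overlapped scivMSC. Itgav, the αv subunit, was at 3.61, 0.408 and 4.35 FPKM in control, 1.57, 1.75 and 1.93 FPKM in DNCB, 6.30, 5.60 and 1.10 FPKM in scMSC, and 1.28, 5.82 and 4.01 FPKM in scivMSC skin. It varied widely within every group but DNCB and passed in no comparison.

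Keratinocyte marker sums were also highest in DNCB skin. The basal keratinocyte markers summed to 2179 to 3021 FPKM in control, 8183 to 10463 FPKM in DNCB, 1755 to 2586 FPKM in scMSC and 2884 to 5504 FPKM in scivMSC skin, and in DNCB against control 3 of 5 were higher (Krt5, Krt14, Trp63) and 1 was lower (Krt15). Stress keratinocyte markers summed to 505.1 to 585.9 FPKM in control, 7484 to 9246 FPKM in DNCB, 699.9 to 1478 FPKM in scMSC and 1180 to 4819 FPKM in scivMSC skin, and 5 of 5 were higher in DNCB than in control skin. The 4819 FPKM and the 5504 FPKM belonged to scivMSC replicate 2, whose stress keratinocyte sum stood apart from 1250 and 1180 FPKM in the other scivMSC libraries, and which also had the highest scivMSC levels of Lama3, Lamb3, Itga2, Itga3, Itga6, Itgb4 and Itgb1. In DNCB against scMSC skin, 2 of 5 basal markers (Krt5, Krt14) and 4 of 5 stress markers were higher, beside 5.77% of all genes. Against scivMSC skin, the same 2 basal markers and 0 of 5 stress markers were higher, beside 3.60% of all genes. The median log2 fold change of the basal markers was 0.07 there. The part of these marker shifts in the laminin-332 and epithelial integrin results was not tested.

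The hemidesmosome and its anchors did not follow as a whole. Of 7 partner genes in this list, Col7a1, the collagen of anchoring fibrils, was the one that passed against control, with 16.9, 10.7 and 16.2 FPKM in control and 42.2, 53.8 and 27.5 FPKM in DNCB skin (log2 fold change 1.32, SE 0.26, adjusted p = 0.00479). The list's median log2 fold change was -0.28, and 14.3% of it was higher against a background of 12.9%. Of 9 basement membrane partners, 4 were higher in DNCB than in control skin (44.4%, beside 12.9% of all genes). The largest changes were in the type IV collagen chains, Col4a1 (log2 fold change 2.01, SE 0.43, adjusted p = 0.00637) and Col4a2 (log2 fold change 1.74, SE 0.33, adjusted p = 0.00396).

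In the stromal integrins, 4 of 9 were higher and 1 lower in DNCB than in control skin, 3 were higher than in scMSC skin and 0 passed against scivMSC skin, with median log2 fold changes of 0.81, 0.57 and 0.80. Of all genes tested, 12.9% were higher and 12.4% lower against control, 5.77% higher against scMSC and 3.60% higher against scivMSC skin. Against scivMSC skin, 6 were higher at an unadjusted p under 0.05, 4 by DESeq2 and 1 by limma. Itga5, which with β1 is the main fibronectin receptor, was at 5.13, 1.77 and 3.95 FPKM in control, 13.9, 14.8 and 17.7 FPKM in DNCB, 6.73, 2.71 and 5.96 FPKM in scMSC, and 5.78, 8.19 and 3.99 FPKM in scivMSC skin. DNCB libraries were above all others, by 1.91 (SE 0.40, adjusted p = 0.00601) against control, 1.58 (SE 0.40, adjusted p = 0.0248) against scMSC and 1.37 (SE 0.39, adjusted p = 0.0581) against scivMSC. The scMSC call was lost without any of the DNCB replicates or scMSC replicate 2 or 3 (adjusted p 0.0535 to 0.0799).

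Itgb3, the β3 subunit of the vitronectin and platelet fibrinogen receptors, was at 1.18, 0.895 and 1.31 FPKM in control, 4.23, 4.28 and 4.09 FPKM in DNCB, 1.08, 1.60 and 2.29 FPKM in scMSC, and 2.95, 1.45 and 0.886 FPKM in scivMSC skin. The 3 DNCB libraries were close together and above the rest, by 1.72 (SE 0.39, adjusted p = 0.00870) against control, 1.31 (SE 0.38, adjusted p = 0.0466) against scMSC and 1.26 (SE 0.38, adjusted p = 0.0705) against scivMSC. The scMSC call was lost in 9 fits that left out 1 library, with adjusted p from 0.0562 to 0.122. The library was any control or DNCB replicate, scMSC replicate 1 or 2, or scivMSC replicate 2. This call was also lost in 3 of 10 other settings, with adjusted p up to 0.0890. Itgb5, another vitronectin receptor subunit, was at 27.9, 25.0 and 28.4 FPKM in control, 52.2, 60.2 and 44.1 FPKM in DNCB, 44.1, 29.5 and 34.8 FPKM in scMSC, and 42.8, 41.4 and 29.3 FPKM in scivMSC skin. Control was the lowest group without overlap, and Itgb5 passed in DNCB against control (0.76, SE 0.17, adjusted p = 0.00725) but not against scMSC (0.51, SE 0.17, adjusted p = 0.0675) or scivMSC (0.46, SE 0.16, adjusted p = 0.117).

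Itga1, a collagen receptor subunit, was at 0.754, 0.569 and 0.770 FPKM in control, 1.49, 1.25 and 1.66 FPKM in DNCB, 1.09, 0.753 and 0.811 FPKM in scMSC, and 0.835, 1.13 and 0.562 FPKM in scivMSC skin. In DNCB skin it exceeded control by 0.89 (SE 0.22, adjusted p = 0.0152), a call lost without control replicate 2 or DNCB replicate 3 (adjusted p 0.0573 to 0.0758), and it overlaps Pelo on the same strand. Itga11, the collagen receptor subunit of fibroblasts, had DNCB libraries at 5.37 to 8.22 FPKM above all others (0.470 to 4.57 FPKM). With a log2 fold change of 1.39 (SE 0.65, adjusted p = 0.146) against control it did not pass, and without scivMSC replicate 3, its lowest library, adjusted p was 0.0225. Itga9, a subunit that binds tenascin-C and osteopontin, was likewise above all other libraries in DNCB skin (2.81 to 3.35 FPKM against 0.915 to 2.69 FPKM) without passing against control (0.81, SE 0.28, adjusted p = 0.0539), though it passed in 7 of 10 other settings.

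Itga7, the α subunit of the main laminin receptor of skeletal muscle, was lower in all 3 DNCB-treated groups than in control skin. It was at 7.90, 6.81 and 8.14 FPKM in control, 4.89, 4.24 and 5.53 FPKM in DNCB, 3.64, 2.90 and 3.33 FPKM in scMSC, and 3.93, 3.85 and 3.97 FPKM in scivMSC skin. Control was above every other library and scMSC was the lowest group, with log2 fold changes against control of -0.82 (SE 0.12, adjusted p = 0.00118) in DNCB, -1.37 (SE 0.12, adjusted p = 0.000777) in scMSC and -1.13 (SE 0.12, adjusted p = 0.00276) in scivMSC skin. These 3 calls held without any 1 library. DNCB was above scMSC by 0.55 (SE 0.12, adjusted p = 0.0126), with adjusted p = 0.0544 without DNCB replicate 3. Of 7 skeletal muscle markers, 6 were lower in DNCB than in control skin and 5 in each MSC group. They summed to 4203 to 5814 FPKM in DNCB, 4229 to 9653 FPKM in scMSC and 4539 to 10981 FPKM in scivMSC skin. Among these 3 groups the median sum was lowest in DNCB skin (4999 FPKM, beside 7239 and 5932 FPKM), whereas Itga7 was highest there. In DNCB against either MSC group, 0 of the 7 markers passed. The part of the muscle marker shift in the Itga7 result was not tested.

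Fibroblast markers summed to 236.4 to 352.1 FPKM in control, 1933 to 2253 FPKM in DNCB, 251.3 to 760.6 FPKM in scMSC and 127.9 to 955.0 FPKM in scivMSC skin, and 5 of 7 were higher in DNCB than in control skin. Endothelial markers summed to 32.2 to 43.6 FPKM in control, 60.8 to 73.4 FPKM in DNCB, 25.4 to 40.6 FPKM in scMSC and 18.9 to 46.3 FPKM in scivMSC skin, and 3 of 6 were higher in DNCB than in control skin. Their part in the stromal integrin results was not tested.

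Among the soluble, matrix and cell surface ligands of these receptors, Spp1 and Tnc had the largest changes against control. In DNCB against control skin, 6 of 12 ligands tested were higher and 1 lower (12.9% and 12.4% of all genes), with a median log2 fold change of 1.24. Spp1, which encodes osteopontin, was at 4.21, 3.29 and 4.36 FPKM in control, 196.9, 143.4 and 119.3 FPKM in DNCB, 5.28, 6.80 and 1.14 FPKM in scMSC, and 3.13, 8.05 and 2.59 FPKM in scivMSC skin. The log2 fold change of Spp1 was 5.09 (SE 0.66, adjusted p = 0.000857) against control, 5.07 (SE 0.66, adjusted p = 0.00199) against scMSC and 5.06 (SE 0.66, adjusted p = 0.00398) against scivMSC. Tnc, which encodes tenascin-C, was at 1.61 to 3.37 FPKM in control, 58.0 to 94.5 FPKM in DNCB and 2.90 to 5.19 FPKM in scMSC skin, with log2 fold changes of 4.78 (SE 0.47, adjusted p = 0.000431) against control, 4.07 (SE 0.45, adjusted p = 0.00147) against scMSC and 3.62 (SE 0.44, adjusted p = 0.00321) against scivMSC. Of the 18 cytoplasmic adaptors that link integrins to actin or signal from them, 6 were higher and 2 lower in DNCB than in control skin (33.3% and 11.1%, beside 12.9% and 12.4% of all genes). Their largest changes were in Parvb, which encodes β-parvin (log2 fold change -1.24, SE 0.24, adjusted p = 0.00418), and Ptk2b, a focal adhesion kinase relative (log2 fold change 1.15, SE 0.18, adjusted p = 0.00173).

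Among the leukocyte and platelet integrins, 2 of 8 tested were higher in DNCB than in control skin, 3 were higher than in scMSC skin and 1 was higher than in scivMSC skin, with median log2 fold changes of 0.92, 1.25 and 0.63. The shares of all genes that were higher in DNCB skin were 12.9%, 5.77% and 3.60%. Itgal, the αL subunit of LFA-1 that binds ICAM-1, was at 0.448, 0.165 and 0.717 FPKM in control, 1.95, 1.71 and 1.99 FPKM in DNCB, 0.542, 0.333 and 0.586 FPKM in scMSC, and 0.521, 0.519 and 0.428 FPKM in scivMSC skin. DNCB libraries were all above the other 9, by 1.92 (SE 0.41, adjusted p = 0.00658) against control, 1.93 (SE 0.41, adjusted p = 0.0116) against scMSC and 1.93 (SE 0.41, adjusted p = 0.0191) against scivMSC. The calls against control and scMSC held without any 1 library, and the one against scivMSC was lost without any of the DNCB replicates or scivMSC replicate 1 or 3 (adjusted p 0.0534 to 0.0703).

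Itgb2, the β2 subunit common to leukocyte integrins, was at 2.74, 1.89 and 8.13 FPKM in control, 17.5, 14.0 and 17.2 FPKM in DNCB, 4.76, 1.13 and 1.78 FPKM in scMSC, and 4.71, 4.59 and 0.947 FPKM in scivMSC skin. DNCB was the highest group without overlap, and the log2 fold change was 2.66 (SE 0.70, adjusted p = 0.0298) against scMSC, with 1.78 (SE 0.67, adjusted p = 0.0769) against control and 2.26 (SE 0.68, adjusted p = 0.0699) against scivMSC. The scMSC call was lost without any of the DNCB replicates or scMSC replicate 2 or 3 (adjusted p 0.0624 to 0.106). Control replicate 3 held the highest control level, and without it Itgb2 passed against control, as it did without scivMSC replicate 3 (adjusted p 0.0317 to 0.0465).

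Itgam, the αM subunit of neutrophils and macrophages, was at 0.873, 1.86 and 7.92 FPKM in control, 6.50, 10.5 and 13.8 FPKM in DNCB, 1.15, 1.03 and 0.797 FPKM in scMSC, and 2.98, 3.57 and 0.260 FPKM in scivMSC skin. Control replicate 3 overlapped the DNCB group, and the value against control was 1.39 (SE 0.84, adjusted p = 0.261). Against scMSC it was 3.35 (SE 0.91, adjusted p = 0.0353), a call lost in 6 fits, without any of the DNCB or scMSC replicates (adjusted p 0.0572 to 0.113). Itgax, the αX subunit of dendritic cells and some macrophages, was at 0.753, 0.563 and 1.55 FPKM in control, 2.15, 2.61 and 1.83 FPKM in DNCB, 1.11, 0.846 and 0.372 FPKM in scMSC, and 2.23, 1.43 and 0.792 FPKM in scivMSC skin. It did not pass, with 1.04 (SE 0.47, adjusted p = 0.136) against control and 1.48 (SE 0.48, adjusted p = 0.0708) against scMSC. Of the summed level of Itgal, Itgam, Itgax and Itgad, Itgam made up 61.3% to 78.3% in DNCB, 41.1% to 77.6% in control, 40.8% to 46.6% in scMSC and 17.5% to 64.3% in scivMSC skin.

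Itga2b, the platelet αIIb subunit, was at 0.803, 0.395 and 0.729 FPKM in control, 1.36, 1.10 and 1.35 FPKM in DNCB, 0.945, 0.854 and 1.05 FPKM in scMSC, and 1.3, 0.931 and 0.946 FPKM in scivMSC skin. Control was the lowest group without overlap. The difference of DNCB from control (0.80, SE 0.26, adjusted p = 0.0476) held in only 1 of 12 fits that left out a library, the one without control replicate 1, with adjusted p from 0.0532 to 0.149 in the 11 others. Itga4 ranged from 0.202 to 0.820 FPKM and Itgb7 from 1.15 to 3.83 FPKM over all libraries, and neither passed in any comparison.

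**Figure D4:**
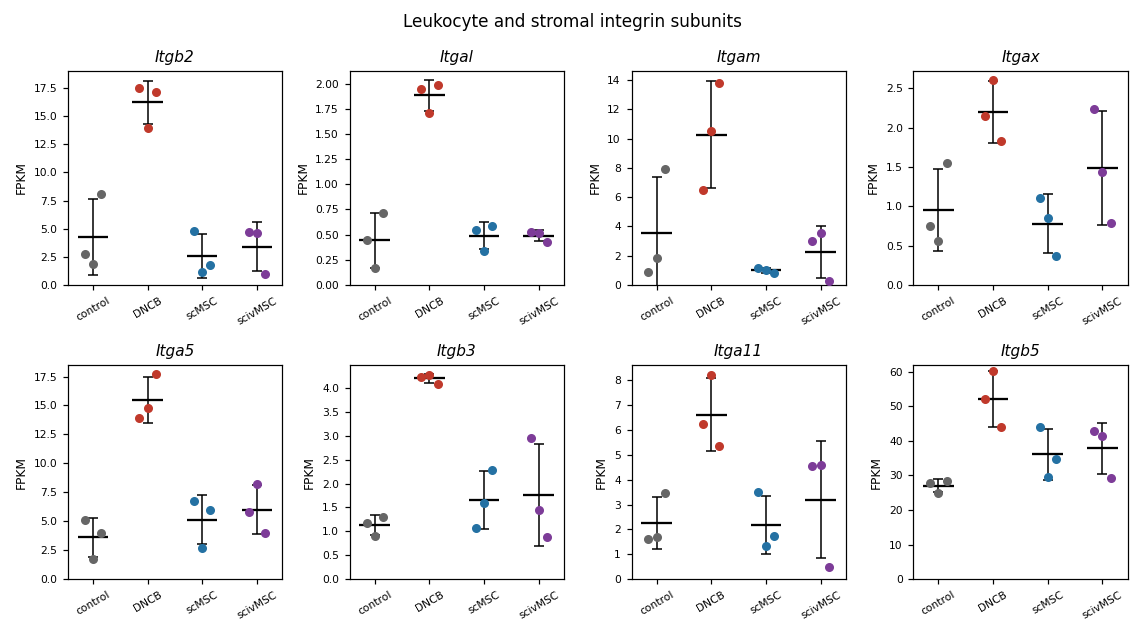
FPKM in each library (points) with the group mean and SD (bars) for 4 leukocyte and 4 stromal integrin subunits. DNCB is the highest group for Itgb2, Itgal, Itga5, Itgb3 and Itga11, while control replicate 3 reaches the DNCB range for Itgam (7.92 against 6.50 to 13.8 FPKM), where axes start at 0 and cut the lower control bar.

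Markers of the cells that carry these subunits differed in how they moved. Neutrophil markers summed to 121.2 to 208.5 FPKM in control, 2504 to 3453 FPKM in DNCB, 16.5 to 66.2 FPKM in scMSC and 35.6 to 179.9 FPKM in scivMSC skin, and 8 of 8 were higher in DNCB skin in each of the 3 comparisons. Macrophage and monocyte markers summed to 208.8 to 793.1 FPKM in control, 899.9 to 977.8 FPKM in DNCB, 171.1 to 400.8 FPKM in scMSC and 51.4 to 425.6 FPKM in scivMSC skin, and 1 of 8, Cd14, passed against each group. The 793.1 FPKM belonged to control replicate 3 and the 51.4 FPKM to scivMSC replicate 3, the libraries that stood apart for Itgb2 and Itgam. T cell markers stayed low, at 3.03 to 5.89 FPKM in control and 4.05 to 4.73 FPKM in DNCB skin, with 1 of 7 tested, Cd4, higher. Platelet markers summed to 11.1 to 24.8 FPKM in control and 48.4 to 59.6 FPKM in DNCB skin. They summed to 9.55 to 16.2 FPKM in scMSC and 5.19 to 20.3 FPKM in scivMSC skin, whereas Itga2b was above every control library in both MSC groups. The part of these marker shifts in the leukocyte integrin results was not tested.

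Outside laminin-332, 1 of 7 laminins tested was higher in DNCB than in control skin (14.3%, beside 12.9% of all genes), 1 was higher than in scMSC skin (beside 5.77% of all genes) and 0 passed against scivMSC skin, with median log2 fold changes of 0.62, 0.13 and 0.12. Lamb1, the β1 chain of most basement membranes, was at 4.09, 4.42 and 5.57 FPKM in control, 13.6, 13.6 and 15.9 FPKM in DNCB, 13.8, 7.35 and 9.53 FPKM in scMSC, and 13.1, 14.8 and 4.94 FPKM in scivMSC skin. DNCB skin exceeded control (1.43, SE 0.32, adjusted p = 0.00858), also without any 1 library. The MSC groups overlapped DNCB skin, with 0.48 (SE 0.32, adjusted p = 0.396) for DNCB against scMSC and 0.41 (SE 0.32, adjusted p = 0.503) against scivMSC. Lama4, a chain of vessel basement membranes, was at 3.75, 2.37 and 3.68 FPKM in control, 6.34, 6.03 and 7.06 FPKM in DNCB, 4.81, 1.74 and 2.29 FPKM in scMSC, and 4.01, 3.78 and 2.23 FPKM in scivMSC skin. DNCB was the highest group without overlap, and Lama4 passed against scMSC (1.13, SE 0.32, adjusted p = 0.0437). This call was lost in 9 fits that left out 1 library, with adjusted p from 0.0556 to 0.141. The library was control replicate 1 or 3, any DNCB replicate, scMSC replicate 2 or 3, or scivMSC replicate 1 or 2. It was also lost in 3 of 10 other settings, with adjusted p up to 0.0813.

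Both MSC groups also differed from control in some members, with a median absolute log2 fold change over the members of 0.43 in scMSC and 0.46 in scivMSC skin, beside 0.82 in DNCB skin. In scMSC against control skin, 2 of 34 members were higher (5.88%, beside 10.4% of all genes) and 5 were lower (14.7%, beside 8.12%). In scivMSC against control, 3 were higher (8.82%, beside 7.11%) and 2 lower (5.88%, beside 6.13%). Apart from the lower members in scMSC skin, these shares were near or below those of all genes. Of the members called, 1 and 3 in scMSC skin (5.12% and 4.20% of all genes) and 2 and 1 in scivMSC skin (3.50% and 3.35% of all genes) also exceeded a log2 fold change of 1. These splits depended on the scaling, since library size alone gave 4 higher and 3 lower in scMSC skin and 7 higher and 1 lower in scivMSC skin. The median log2 fold changes of the members were 0.08 and 0.23, against 0.00 and 0.04 over all genes.

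Lama5, the α5 chain of the mature epidermal and hair follicle basement membrane, ranged from 5.83 to 6.60 FPKM in control, 6.83 to 9.23 FPKM in DNCB, 9.55 to 14.0 FPKM in scMSC and 8.91 to 12.3 FPKM in scivMSC skin. It was higher in scMSC than in control skin (0.73, SE 0.18, adjusted p = 0.0174), a call lost without control replicate 2 or 3 or scMSC replicate 3 (adjusted p 0.0574 to 0.0618), and stood at 0.59 (SE 0.18, adjusted p = 0.0501) in scivMSC against control. Lamc3, which encodes the γ3 chain, ranged from 0.628 to 0.737 FPKM in control, 0.824 to 1.75 FPKM in DNCB, 1.24 to 4.18 FPKM in scMSC and 1.47 to 3.80 FPKM in scivMSC skin. Both MSC groups were above control, by 1.82 (SE 0.45, adjusted p = 0.0191) in scMSC and 1.70 (SE 0.45, adjusted p = 0.0318) in scivMSC skin. The first call was lost without any of the control replicates or scMSC replicate 1 (adjusted p 0.0509 to 0.0680) and the other without any of the control replicates or scivMSC replicate 2 (adjusted p 0.0741 to 0.12).

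Hair follicle markers were also highest in the MSC groups. The non-keratin hair follicle markers summed to 31.2 to 76.6 FPKM in control, 81.5 to 193.3 FPKM in DNCB, 1463 to 4167 FPKM in scMSC and 529.2 to 1257 FPKM in scivMSC skin, and 5 of 7 were higher than in control skin in each MSC group. Within the MSC groups, single libraries did not follow this order. In scMSC skin, replicate 2 had the highest hair follicle sum (4167 FPKM) and the lowest Lama5 (9.55 FPKM) and Lamc3 (1.24 FPKM). In scivMSC skin, replicate 1 had the highest sum (1257 FPKM) and the lowest Lama5 (8.91 FPKM) and Lamc3 (1.47 FPKM). The part of the hair follicle markers in the Lama5 and Lamc3 results was not tested.

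Lamb2, the β2 chain of the neuromuscular junction and of vessel walls, ranged from 21 to 26.7 FPKM in control, 19.7 to 19.9 FPKM in DNCB, 12.9 to 21.7 FPKM in scMSC and 16.1 to 19.4 FPKM in scivMSC skin. It was lower than in control, with log2 fold changes of -0.57 (SE 0.16, adjusted p = 0.0287) in scMSC and -0.56 (SE 0.16, adjusted p = 0.0378) in scivMSC skin. Neither call held in limma or under scaling by library size alone. The scMSC call was lost without control replicate 1 or scMSC replicate 2 or 3 (adjusted p 0.0536 to 0.0747), and the scivMSC call was lost in 7 fits (without control replicate 1 or any DNCB or scivMSC replicate, adjusted p 0.0577 to 0.108). The level of Lamb1 was 0.153 to 0.243 of that of Lamb2 in control, 0.682 to 0.808 in DNCB, 0.498 to 0.633 in scMSC and 0.307 to 0.785 in scivMSC skin, so that control lay below every other library in this ratio, which was not tested.

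In scMSC skin, Lamb3 was below control with a log2 fold change of -0.85 (SE 0.21, adjusted p = 0.0173), a call lost in limma, under scaling by library size alone and without scMSC replicate 2 or 3 (adjusted p 0.0618 to 0.0622). Itgb6 was below control with a log2 fold change of -1.11 (SE 0.20, adjusted p = 0.00489) without overlap, also when any 1 library was left out. Itgae, the αE subunit of T cells and dendritic cells that bind E-cadherin in the epidermis, ranged from 0.557 to 1.47 FPKM in control, 0.565 to 0.790 FPKM in DNCB, 0.243 to 0.464 FPKM in scMSC and 0.495 to 0.544 FPKM in scivMSC skin. In scMSC skin it was lower than in control without overlap, also when any 1 library was left out, with a log2 fold change of -1.71 (SE 0.35, adjusted p = 0.00780), though not with the 6 libraries of the comparison alone (adjusted p = 0.0506), and stood at -1.11 (SE 0.34, adjusted p = 0.0576) in scivMSC skin. The Langerhans and dendritic cell markers summed to 176.5 to 271.4 FPKM in control, 101.7 to 114.5 FPKM in DNCB, 111.8 to 224.7 FPKM in scMSC and 131.0 to 226.3 FPKM in scivMSC skin, and 2 of 7 T cell markers tested (Cd3g and Trdc) were lower in scMSC than in control skin. Their part in the Itgae result was not tested.

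In scivMSC skin, Itgb8 was above control by 0.87 (SE 0.24, adjusted p = 0.0356) and Itga10, a collagen receptor subunit of cartilage, by 1.41 (SE 0.40, adjusted p = 0.0404). Itga10 ranged from 0.243 to 0.342 FPKM in control, 0.395 to 0.742 FPKM in DNCB, 0.368 to 0.808 FPKM in scMSC and 0.677 to 1.28 FPKM in scivMSC skin. Each of these calls was lost in 8 fits that left out 1 library, with adjusted p from 0.0522 to 0.151 for Itgb8 (any control or scivMSC replicate, DNCB replicate 3, scMSC replicate 2) and from 0.050 to 0.146 for Itga10 (any control or scivMSC replicate, DNCB replicate 2 or 3).

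**Figure D5:**
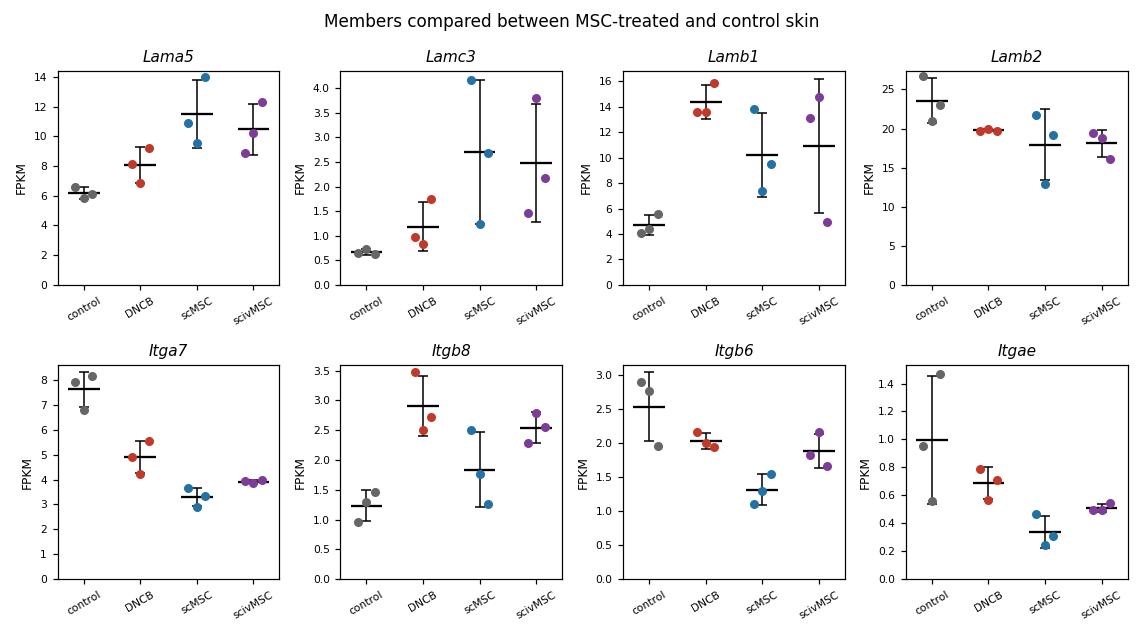
FPKM in each library (points) with the group mean and SD (bars) for 8 members compared between MSC-treated and control skin. Lama5 and Lamc3 have their highest means in the MSC groups, Lamb1 lies between 4.94 and 15.9 FPKM in all DNCB-exposed libraries, and Itga7 and Itgae are lowest in scMSC skin.

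The route of MSC delivery made no difference that could be called. Between scMSC and scivMSC skin, 0 members passed in either direction, where 0% of all genes tested were higher and 0.00457% lower. At an unadjusted p under 0.05 there were 2, Lamb3 (-0.71, SE 0.21, adjusted p = 0.565) and Itgb6 (-0.49, SE 0.20, adjusted p = 0.641), both lower in scMSC skin, and DESeq2 and limma called 0. All scMSC libraries were below all scivMSC libraries for Lamb3 (4.32 to 7.02 FPKM against 7.35 to 9.96 FPKM), and likewise for Itgb4, Itgb6, Itgae, Itga7 and the untested Lama1. The share of all genes that separate in this way was not counted, so no route pattern is read from these members. Log2 fold changes of the 34 members ran from -1.14 (Itgam, SE 0.85) to 0.32 (Itga9, SE 0.28), and none of them passed.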

How the data were processed

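RNA-seq of dorsal skin was analysed in 12 libraries, 3 in each of 4 groups taken from the sample labels, after extraction of total RNA. The table deposited by the authors gives FPKM and whole-number estimated counts per gene. Per the submitters' processing notes, Bowtie 0.12.2, HISAT2 2.0 and StringTie 1.3.0 were used, and strand use is not given in the sources used here. These notes name the build mm8, but gene positions in the file are those of GRCm38 (34 of 37 members at the same position as in GENCODE M21, all but Itga3, Itgad and Itgb2), and GRCm38 is used here. Of low counts from 1 to 18, 38.9% to 41.2% were multiples of 4, so 4 estimated counts were taken as 1 fragment and 12 as the floor of a library.

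Estimated counts were tested with edgeR 4.0.16 in R 4.3.3 (TMM scaling, quasi-likelihood F-test, 4 groups in 1 model) over the 21890 genes whose mean FPKM reached 0.1, with Benjamini-Hochberg adjustment over all of them in each comparison. TMM factors ran from 0.887 to 1.064, with a common biological coefficient of variation of 0.420. Libraries of a group correlated at 0.944 to 0.967. The SE is the absolute log2 fold change divided by the square root of F. Alternatives were DESeq2 1.42.0, limma 3.58.1 on log2(FPKM + a pseudocount of 0.01, 0.1 or 1), DESeq2 size factors, library size alone, no filter, counts divided by 4, the 6 libraries of a comparison alone, a replicate block, a stricter fold limit and leaving out each library. The test was run on simulated data with known changes.

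The rule took 38 genes, of which 1 is not reported here. Every other member could be named. Values in every library were given for members that passed in a comparison of DNCB skin and for the subunits of α6β4, α3β1, laminin-332 and the β2 integrins, and for partner lists the largest 2 changes against control were named. Lamc1, and ranges of the other members, were added after their values were seen. The members, classes and lists were chosen with earlier results of these data known. Promoters are from RefSeq (GRCm38.p6). For 22 of 24 genes the first 30 bases after the start were found in a GENCODE M21 transcript.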

Additional observations from a re-analysis of the deposited data

How the results depend on the processing

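Each count of members was recomputed under the alternatives, and the 87 named log2 fold changes kept their sign in all of them. Over 870 values under other settings, 746 stayed on the same side of the threshold, 85 gained it and 39 lost it, and over 1044 values with 1 library left out these numbers were 889, 43 and 112. In all settings but the stricter fold limit, and in all 12 fits that left out a library, 10 of 14 members still passed in DNCB against control. Against scMSC, 6 of 14 did so (Itgb4, Lama3, Itgb1, Lamb3, Itga6, Itgal), and against scivMSC 1 of 3 (Lama3). In scMSC against control 2 of 7 did so (Itga7, Itgb6), and in scivMSC against control 1 of 5 (Itga7). The cause of the changes below was not tested.

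Against control, DNCB skin had 13 higher members, 8 with the fold limit, and 1 lower member, 3 by DESeq2, 2 with DESeq2 size factors or with the 6 libraries alone and 0 with the fold limit. DNCB against scMSC gave 2 lower members by DESeq2 in place of 0. DNCB against scivMSC gave 3 higher members, 15 by DESeq2, 5 by limma with a pseudocount of 0.1, 6 by limma with a pseudocount of 1 or with counts divided by 4, and 7 with the 6 libraries alone. In scMSC against control, 2 higher members became 4 under library size alone and 1 with the fold limit, and 5 lower members became 3 by limma with any of the pseudocounts, under library size alone and with the fold limit, and 2 with the 6 libraries alone. In scivMSC against control, 3 higher members became 6 by DESeq2 or limma with any of the pseudocounts, 7 under library size alone and 1 without the filter or with the 6 libraries alone, and 2 lower members became 4 by DESeq2 and 1 by limma with any of the pseudocounts, without the filter, under library size alone, with the 6 libraries alone or with the fold limit. Library size alone and limma use no TMM scaling, and they moved the median of all genes in comparisons with control by up to 0.227 (DNCB), 0.167 (scMSC) and 0.214 (scivMSC) on the log2 scale.

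With 1 library left out, higher and lower members numbered 9 to 15 and 1 to 2 in DNCB against control, 6 to 17 and 0 to 1 against scMSC (6 without DNCB replicate 3), 2 to 8 and 0 against scivMSC (8 without scivMSC replicate 2), 0 to 3 and 3 to 6 in scMSC against control (0 higher without control replicate 2) and 0 to 4 and 1 to 3 in scivMSC against control (0 higher without control replicate 1 or 2 or scivMSC replicate 2). Groups share replicate numbers, but the numbers did not pair the libraries. Same-number deviations correlated at -0.185 to 0.133 over 18 pairs of libraries, 1 of them over 0.1, and 3 of 12 libraries correlated best with their own number. With a replicate block the counts were 13 higher and 1 lower in DNCB against control, 11 against scMSC, 3 against scivMSC, 2 and 5 in scMSC against control and 2 and 2 in scivMSC against control.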
